A study of Mus musculus with 8 samples.

Results

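Open chromatin was compared between the hair germ and the bulge of resting mouse hair follicles, by merging overlapping ATAC-seq peaks of the hair germ list and the bulge list into sites. The Y chromosome and mitochondrial DNA were not compared. The 69125 sites came from 56536 hair germ peaks and 62320 bulge peaks, out of 266686 peaks deposited for 4 populations, and 48250 of them were in both lists (shared sites). ATAC-seq uses a transposase that cuts accessible DNA and adds sequencing adapters to it. The pileup of a peak is the number of fragments that cover its summit, and a site's signal in a list was its highest pileup divided by the list's total fragments and multiplied by 1000000 (fragments per 1000000 fragments, FPM).

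Both populations came from the back skin of Lgr5-eGFP-ires-CreER mice of mixed sex at postnatal day 55, in the second telogen. This strain carries GFP and an inducible Cre at the Lgr5 locus, so cells are sorted by activity of that locus. Both were sorted for GFP and the integrins Itga6 and Itgb1, and they were separated by CD34, a surface protein of bulge stem cells: bulge cells were CD34+ and hair germ cells CD34-. The anagen populations, used only to describe the sites further, were sorted at postnatal day 30: basal transient amplifying cells (TACs) from the same strain and suprabasal TACs from K14-H2BGFP mice, in which a keratin promoter drives GFP-tagged histone. Basal TACs were sorted as GFP-, CD34- and SCA1- cells with high Itgb1 and with Pcad, and suprabasal TACs as cells of low GFP without Itga6 or CD34. Each list was called on 2 samples pooled, so the spread between samples is not known and no test between the populations was possible. Intervals are 95% intervals and cover counting error only. A lower signal can come from fewer cells of a kind with the site open or from less opening per cell, and these cannot be told apart here.

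The bulge is the lower part of the resting follicle that holds slow-cycling stem cells. The hair germ sits just below it, next to the dermal papilla. Hair germ cells are the first to divide when a new hair cycle begins, under WNT signals and lowered BMP signalling, and bulge cells follow later. Nfatc1, Sox9, Lhx2 and Tcf7l1 are known transcription factors of the bulge, and Lef1 is a transcription factor through which WNT signals act as hair progenitors form.

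The libraries differed in depth: 24065469 bulge fragments against 11053351 hair germ fragments, a ratio of 2.18. The lowest pileup in the bulge list was 10 fragments (0.416 FPM) and in the hair germ list 6 fragments (0.543 FPM). The median fold enrichment over local background, as the authors' caller gave it, was 7.48 in the bulge list and 7.14 in the hair germ list. The median shared site had 3.08 FPM in the hair germ and 3.16 in the bulge, and the median log2 ratio was -0.01, so scaling by total fragments nearly centred the lists. Ratios are given relative to that median.

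Start sites of genes were the places where the lists differed least, and 3 that did differ in each direction are shown by sequence. RefSeq windows on the GRCm38.p6 assembly (mm10) were matched by symbol for 17492 protein-coding genes, and 9410 of them lay at a shared site. Of these, 84 were at sites with at least 2-fold more signal in the hair germ and 23 at sites with at least 2-fold more in the bulge. The 250 bases before the start, 5′ to 3′ on the gene's strand, are printed for the 3 genes in each direction whose window held the peak summit and whose counting interval lay farthest from the median. Capitals mark letters of 9 motifs searched on both strands: the AP-1 motif (TGANTCA), the TCF/LEF motif (CTTTGA), an NFI half-site (TTGGCA), the SOX motif (ACAATG), the TEAD motif (GGAATG), the RUNX motif (TGTGGT), the GATA motif (AGATAA), the LHX motif (TAATTA) and the KLF/Sp motif (GGGCGG). The higher signal was in the hair germ at Cib4 (chr5:30545837-30546086, minus strand), Ccdc8 (chr7:16993652-16993901, plus strand) and Serpina3i (chr12:104262872-104263121, plus strand):
Cib4: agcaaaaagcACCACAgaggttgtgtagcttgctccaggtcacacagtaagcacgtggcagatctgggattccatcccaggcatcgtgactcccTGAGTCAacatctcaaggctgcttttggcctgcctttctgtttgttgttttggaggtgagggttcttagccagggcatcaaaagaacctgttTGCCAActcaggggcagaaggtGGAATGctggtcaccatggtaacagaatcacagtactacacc
Ccdc8: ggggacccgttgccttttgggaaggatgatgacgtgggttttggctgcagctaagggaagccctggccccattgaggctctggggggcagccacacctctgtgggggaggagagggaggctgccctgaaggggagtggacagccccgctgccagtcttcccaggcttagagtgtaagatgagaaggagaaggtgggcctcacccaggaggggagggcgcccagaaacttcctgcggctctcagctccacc
Serpina3i: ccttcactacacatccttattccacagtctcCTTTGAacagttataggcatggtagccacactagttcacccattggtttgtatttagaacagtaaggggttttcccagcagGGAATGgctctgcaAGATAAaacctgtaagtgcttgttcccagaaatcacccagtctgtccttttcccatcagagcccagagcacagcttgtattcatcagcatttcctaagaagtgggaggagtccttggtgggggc

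The site at Cib4 had 4.43 FPM in the hair germ and 0.79 in the bulge, a 5.64-fold difference (3.26 to 10.2). At Ccdc8 the values were 2.53 and 0.582, 4.38-fold (2.23 to 8.997), and at Serpina3i, a serine protease inhibitor gene, 4.70 and 1.66, 2.85-fold (1.85 to 4.41). All 3 intervals lay above 1. The Cib4 window held the letters of AP-1, NFI, TEAD and RUNX motifs, the Serpina3i window those of TCF/LEF, TEAD and GATA motifs, and the Ccdc8 window none of the 9.

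The higher signal was in the bulge at Gm829 (chr4:45683339-45683588, plus strand), Fcgbp (chr7:28070986-28071235, plus strand) and Chst13 (chr6:90325186-90325435, minus strand):
Gm829: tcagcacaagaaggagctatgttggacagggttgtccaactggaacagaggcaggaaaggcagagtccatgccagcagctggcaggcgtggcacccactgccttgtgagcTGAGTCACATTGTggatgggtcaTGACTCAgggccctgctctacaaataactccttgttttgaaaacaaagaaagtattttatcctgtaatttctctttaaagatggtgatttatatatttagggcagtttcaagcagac
Fcgbp: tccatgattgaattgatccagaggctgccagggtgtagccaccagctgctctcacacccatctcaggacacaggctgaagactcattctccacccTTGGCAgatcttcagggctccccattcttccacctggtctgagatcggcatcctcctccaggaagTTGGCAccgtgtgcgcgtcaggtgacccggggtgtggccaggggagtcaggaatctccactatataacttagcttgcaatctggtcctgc
Chst13: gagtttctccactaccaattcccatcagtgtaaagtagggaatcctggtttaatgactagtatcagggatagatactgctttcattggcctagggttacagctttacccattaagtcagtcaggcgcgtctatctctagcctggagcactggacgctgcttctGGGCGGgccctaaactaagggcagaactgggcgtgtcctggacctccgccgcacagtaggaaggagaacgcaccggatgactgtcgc

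The site at Fcgbp, a secreted mucin-like protein gene, had 10.9 FPM in the bulge against 4.70 in the hair germ, a 2.30-fold difference (1.70 to 3.16). At Chst13, a chondroitin sulfotransferase gene, the values were 8.64 and 4.16, 2.07-fold (1.495 to 2.91), and at Gm829 they were 7.52 and 2.90, 2.58-fold (1.77 to 3.89). The Gm829 window held 2 matches of AP-1 letters, 1 of them directly followed by a match of SOX letters. The Fcgbp window held 2 NFI half-sites and the Chst13 window 1 KLF/Sp match. AP-1 letters were in 6.22% of all 17492 windows and in 4.11% of the windows at shared sites, in 8 of the 84 windows higher in the hair germ and in 2 of the 23 higher in the bulge. KLF/Sp letters were in 42.7% of all windows and in 63.7% of the windows at shared sites. They were in 45 of the 84 and in 6 of the 23, and the median GC content of these windows was 60.8% at shared sites, 60.0% in the 84 and 52.4% in the 23. Matches describe the letters of these windows and not binding.

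Most shared sites were alike in both populations. Within 2-fold of the median lay 42985 sites (89.1%). The hair germ had at least 2-fold more signal at 2852 sites (5.91%) and the bulge at 2413 (5.0%). The whole counting interval lay past 2-fold at 484 sites higher in the hair germ and 264 higher in the bulge, and the single largest differences were 9.43-fold towards the hair germ and 6.14-fold towards the bulge. The 5th and 95th percentiles of the log2 ratio were -1.0 and 1.07. In fold enrichment over local background, fewer sites were past 2-fold: 698 higher in the hair germ and 753 in the bulge.

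Among shared sites, those past 2-fold towards the hair germ were weaker than those past 2-fold towards the bulge. Sites higher in the hair germ had a median of 2.62 FPM there and 0.956 in the bulge. Sites higher in the bulge had a median of 4.20 in the bulge against 1.63 in the hair germ. A shared site must be called in both lists, and the lowest signal called was 0.543 FPM in the hair germ and 0.416 in the bulge. Weak sites higher in the bulge could therefore be missing from the shared sites. The part of this limit in the levels and ratios was not tested. The ratio itself moved with the level: the median log2 ratio was 0.34 in the weakest of 20 bins, where the median hair germ pileup was 9 fragments, and -0.08 in the strongest, where it was 171. Its SD was 0.51 in the weakest bin, 0.79 in the fifth and 0.20 in the strongest. When each site was set against the median of its own bin, 2105 sites were higher in the hair germ and 2721 in the bulge, so 43.6% of the sites past 2-fold were higher in the hair germ, against 54.2% otherwise. Which population had more such sites therefore depended on the centring.

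**Figure D1:**
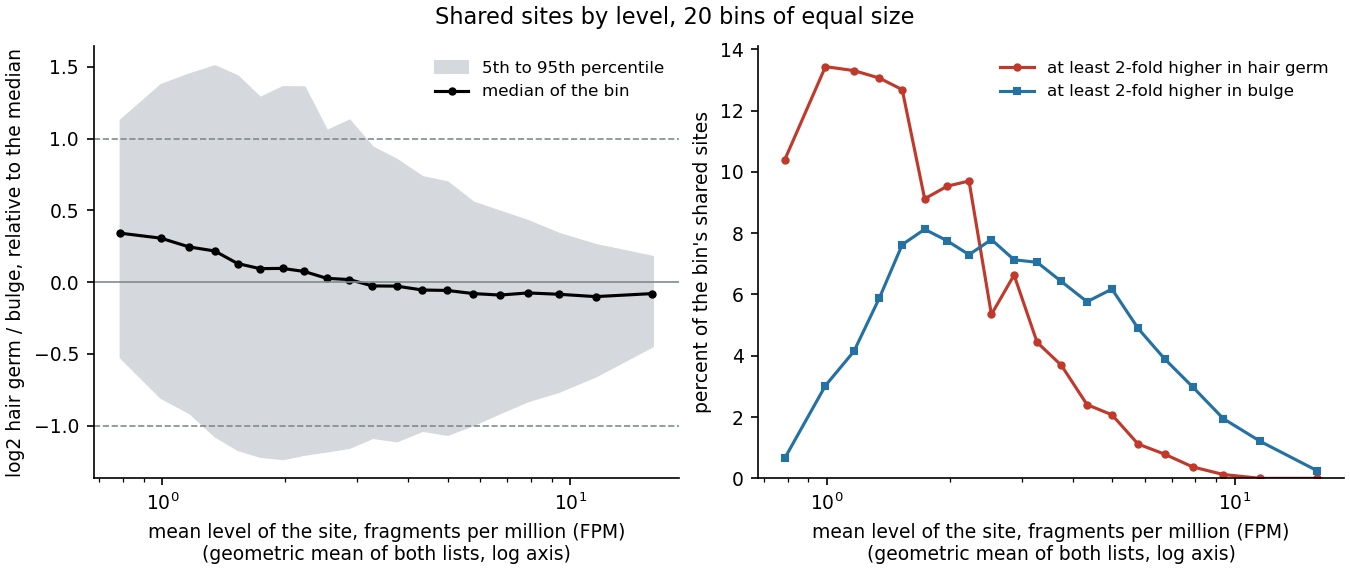
Ratio of hair germ to bulge signal at the 48250 shared sites against the level of the site (log axis), in 20 bins of equal size: left, the median and the 5th to 95th percentile of the log2 ratio, with dashed lines at 2-fold; right, the percent of each bin at least 2-fold higher in the hair germ (circles) or in the bulge (squares). The median runs from 0.34 in the weakest bin to -0.08 in the strongest, and no site of the strongest bin is 2-fold higher in the hair germ.

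Few start sites were past 2-fold. Of 10169 shared sites that held an annotated start site, 1.35% were at least 2-fold higher in the hair germ (1.14 to 1.59%) and 0.472% in the bulge (0.356 to 0.625%). Inside genes, away from a start, the shares were 6.45% and 4.93% of 20604 sites, and outside genes but within 100 kb of one they were 7.57% and 6.15% of 13373 sites. The order turned at the 4104 sites with no protein-coding gene within 100 kb: 9.11% were higher in the hair germ (8.27 to 10.0%) and 12.8% in the bulge (11.9 to 13.9%), and their median log2 ratio was -0.12. Start sites were also stronger, with a median of 6.69 FPM in the hair germ against 2.26 at sites far from genes, and the part of level in this order was not tested. On the X chromosome 5.33% and 4.18% of 1125 sites were past 2-fold, and on the autosomes 5.92% and 5.02%.

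**Figure D2:**
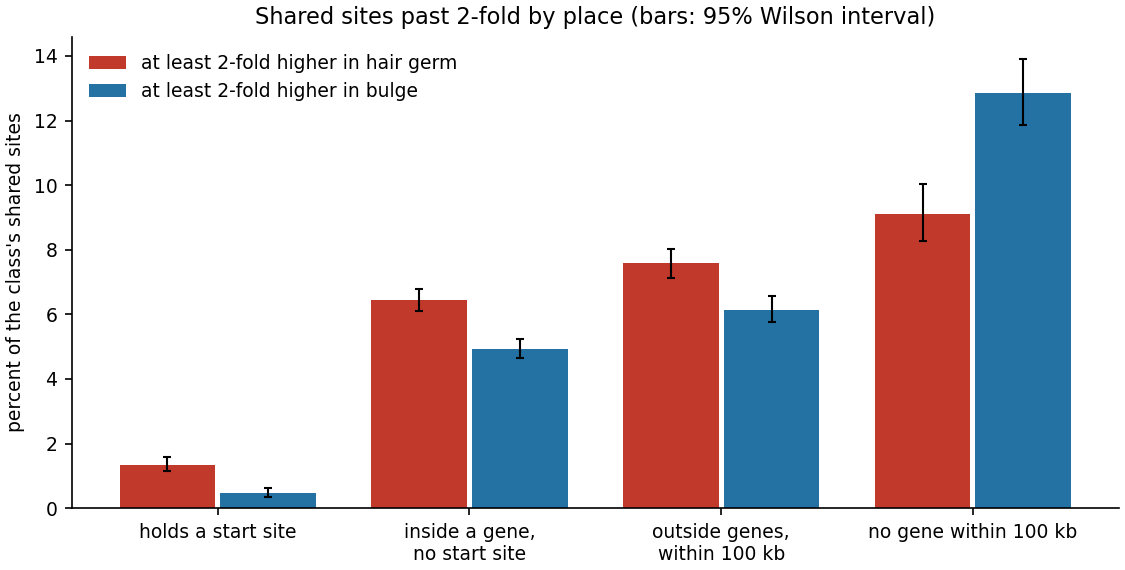
Percent of shared sites at least 2-fold higher in the hair germ or in the bulge, by place relative to RefSeq genes, with 95% Wilson intervals. Both bars are lowest at start sites, and the bulge bar is the taller of the pair only far from genes.

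Sites past 2-fold also lay near others of the same direction. Among sites higher in the hair germ with a shared site next to them within 50 kb, 24.3% had a neighbour that was higher in the hair germ and 3.14% a neighbour higher in the bulge. Among sites higher in the bulge the shares were 3.78% and 27.4%. Over all shared sites they were 9.49% and 7.68%. Neighbouring sites are not independent, and no test was made.

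Genes were ranked by the median log2 ratio of the shared sites nearest to them, within 100 kb, among 2588 genes with at least 5 such sites. Nearness does not show that a site acts on the gene. The 12 genes highest towards the hair germ ran from Areg, at 1.41, to Tnfrsf19, at 1.11, and held ligand, receptor, channel and matrix genes. None of the 12 had a shared site that was 2-fold higher in the bulge. In fold enrichment the 12 medians ran from 0.08 at Tnfrsf19 to 0.52 at Slc1a2. Of 63 gene medians past 0.5 among the named genes and list members, 52 kept their direction in fold enrichment. Only 8 of the 63 stayed past 0.5 there.

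Areg encodes amphiregulin, a growth factor that activates the EGF receptor. Its start site had 4.70 FPM in the hair germ and 3.45 in the bulge, while a site 55.9 kb away (chr5:91204357-91205073) had 2.71 and 0.665 and a site 71.6 kb away had 5.16 and 1.95. These distal sites were 4.10-fold (2.17 to 8.06) and 2.65-fold (1.77 to 3.99) higher in the hair germ. In all, 4 of the 5 shared sites of Areg were past 2-fold, and the start site was not. A further 3 sites near Areg were in the hair germ list only, against 1 in the bulge list only. Of these, 3 and 0 were past the depth limit, the pileup (34.8 for bulge sites, 12.4 for hair germ sites) at which the other library would reach the lower quartile of its own peaks at equal openness. Of all sites, 10.2% were in the hair germ list only and 20% in the bulge list only. Past the depth limit these shares were 4.61% and 5.59%.

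Tnfrsf19 (Troy) encodes a receptor of the TNF receptor family that is known as a WNT target in progenitor cells. Of its 8 shared sites 5 were at least 2-fold higher in the hair germ, and its median of 1.11 was 0.08 in fold enrichment. The strongest difference was 16.7 kb outside the gene (chr14:61063591-61064255), with 5.07 FPM in the hair germ and 0.665 in the bulge, 7.66-fold (4.33 to 14.3). Another site, which holds the start of the uncharacterised gene Gm41168, had 5.61 and 1.21. The site at an annotated start of Tnfrsf19 inside the gene had 2.53 and 2.16, within 2-fold.

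Ptpro, a receptor tyrosine phosphatase gene, had a median of 1.35 over 7 shared sites, all above 0. One of its intragenic sites (chr6:137411891-137412390) had 5.25 FPM in the hair germ and 1.70 in the bulge, 3.10-fold (2.04 to 4.74). Scnn1b, the β subunit of the epithelial sodium channel, had 5 of 7 sites past 2-fold, and the largest (chr7:121873783-121874868, inside the gene) had 4.61 and 0.706, 6.57-fold (3.73 to 12.1). Csgalnact1, an enzyme gene of chondroitin sulfate synthesis, had 7 of 13 sites past 2-fold and none past it towards the bulge. Its strongest difference (chr8:68387415-68388085) was 4.98 against 0.79, 6.34-fold (3.70 to 11.3).

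At Lamb1, the laminin β1 chain gene, a site at the start was itself past 2-fold. That site (chr12:31264556-31266333) had 4.98 FPM in the hair germ and 2.16 in the bulge, 2.31-fold (1.56 to 3.45), and 8.73 in the basal TAC list. All 7 of its shared sites were above 0. The other genes of this rank were Peli1 (median log2 ratio 1.35), an E3 ubiquitin ligase gene, Gjb6 (1.27), the connexin 30 gene, 1600014C23Rik (1.24), Slc1a2 (1.23), a glutamate transporter gene, Slc35f2 (1.18) and Sgcd (1.13), a sarcoglycan gene. Slc1a2 rested on weak sites: over its 3 sites with a pileup of at least 20 in both lists its median was -0.38.

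By the number of sites past 2-fold, the leading genes towards the hair germ were Tiam1, with 8 sites higher in the hair germ and 0 in the bulge among 34, Csgalnact1 and Shroom3 (7 and 0), Lpp (9 and 2 of 47), and Lifr (6 and 1 of 16), which shared its difference of 5 with 8 other genes, among them Bmp7, Scnn1b and Tnfrsf19. Tiam1 activates the small GTPase Rac, Shroom3 drives apical constriction through actomyosin, and Lifr is the receptor for leukaemia inhibitory factor. A strong site near Tiam1 (chr16:89718701-89719651), 67.5 kb from the gene and at the start of the uncharacterised gene Gm35500, had 18.1 FPM in the hair germ and 4.86 in the bulge, 3.74-fold (2.96 to 4.74). At the start of Tiam1 itself the values were 14.9 and 17.7. In Shroom3 the largest difference (chr5:92767405-92767948, inside the gene) was 6.24 against 1.41, 4.44-fold (2.91 to 6.91). The median of Lpp over its 47 sites was -0.03, so these sites stood among many that were alike.

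**Figure D3:**
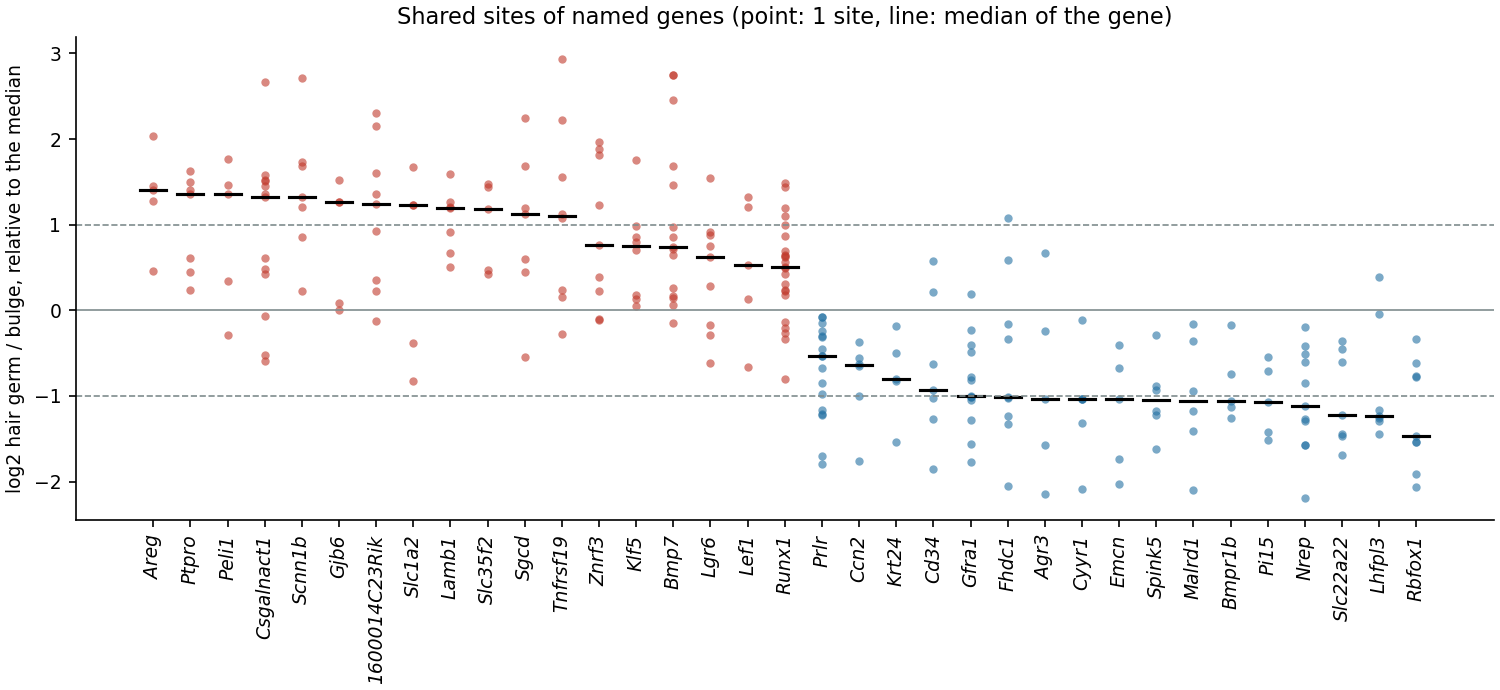
Log2 ratio of hair germ to bulge signal at each shared site (points) of the 24 genes with the most extreme medians and of 11 further genes described in the text, with the median of each gene (line) and dashed lines at 2-fold. Sites of 1 gene spread widely, and the genes on the right have most of their points below 0.

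Towards the bulge, the 12 lowest medians ran from Rbfox1, at -1.47, to Fhdc1, at -1.01. Rbfox1 encodes an RNA-binding regulator of splicing. All 9 of its shared sites were below 0 and 5 were past 2-fold, and a further 13 sites near it were in the bulge list only, against 0 in the hair germ list only. Of the 13, 4 were past the depth limit. Over all sites 20% were in the bulge list only and 10.2% in the hair germ list only. Its strongest site (chr16:7447513-7448783, 35.03 kb outside the gene) had 14.1 FPM in the bulge against 5.07 in the hair germ, 2.77-fold (2.09 to 3.75).

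Bmpr1b encodes a type I BMP receptor. Its 5 shared sites were all below 0, with a median of -1.06, and 3 were past 2-fold. The strongest of them (chr3:142130986-142131691, inside the gene) had 4.99 FPM in the bulge against 2.26 in the hair germ, 2.19-fold (1.42 to 3.52). Emcn, the gene of the endothelial surface protein endomucin, had a median of -1.04, and 3 of its 5 sites were past 2-fold. Others of this rank were Slc22a22 (-1.23), an organic anion transporter gene, Nrep (-1.12), Pi15 (-1.06), Malrd1 (-1.05), Spink5 (-1.05), a serine protease inhibitor gene of the epidermis, Agr3 (-1.04) and Cyyr1 (-1.04). Lhfpl3 (-1.23) had 5 of 7 sites past 2-fold.

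By the number of sites past 2-fold, the leading genes towards the bulge were Gfra1, with 7 of 13 shared sites past 2-fold, Nrep (6 of 11), and Prlr, Fmn1, Niban1, Atp10b, Cyyr1, Lhfpl3 and Rbfox1 (5 each). None of these 9 genes had a site 2-fold higher in the hair germ. Gfra1 encodes a co-receptor for the growth factor GDNF. A site inside it (chr19:58268164-58269096) had 7.73 FPM in the bulge against 3.17 in the hair germ, 2.43-fold (1.69 to 3.59), and 8 further sites, 5 of them past the depth limit, were in the bulge list only against 0 in the hair germ list only. In fold enrichment over local background the median of Gfra1 was 0.01, so its direction rested on the pileup. Fmn1, a formin gene, had a site (chr2:113386585-113387598) with 7.56 against 1.81, 4.16-fold (2.61 to 6.97). Prlr, the prolactin receptor, had all 17 of its shared sites below 0, with a median of -0.54, or -0.03 in fold enrichment. It had 10 sites in the bulge list only against 1 in the hair germ list only, of which 1 and 0 were past the depth limit. Over all sites 20% were in the bulge list only and 10.2% in the hair germ list only.

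Genes known for bulge identity were mixed. CD34 protein was used to sort the populations, so Cd34 is a check of the labels and not a finding. Its start region (chr1:194938559-194940014) had 7.19 FPM in the bulge against 3.53 in the hair germ, 2.03-fold (1.42 to 2.95), and a site 8.24 kb away had 4.28 and 1.18, 3.62-fold (2.03 to 7.03). Its median over 7 sites was -0.93, and -0.10 in fold enrichment. Krt24, a bulge keratin gene, had all 5 sites below 0 with a median of -0.80, although in fold enrichment the median was 0.02. Krt15, the keratin commonly used to mark the bulge, had 3 shared sites at 5.11, 7.23 and 5.82 FPM in the bulge, against hair germ levels of 2.53, 5.79 and 4.79, of which only the first was past 2-fold. Ccn2, a matricellular growth factor gene, had all 6 sites below 0 with a median of -0.64.

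The transcription factors of the bulge had medians nearer 0 than Cd34 and Krt24. Nfatc1, which holds bulge cells at rest, had a median of -0.39 over 19 sites, with 2 sites past 2-fold towards the bulge and 1 towards the hair germ. An intragenic site of Nfatc1 (chr18:80617090-80618011) had 4.94 FPM in the bulge against 1.72 in the hair germ, 2.86-fold (1.75 to 4.92). Sox9 had a median of -0.42 over 8 sites, Lhx2 -0.17 over 11, Nfix 0.00 over 14, Nfib 0.04 over 47, Tcf7l2 0.06 over 24 and Tcf7l1 0.30 over 16. Lhx2 had 2 sites past 2-fold towards the hair germ, and 1 of them (chr2:38321116-38321595) had 2.71 in the hair germ and 0.956 in the bulge. Nfib had 4 shared sites past 2-fold towards the hair germ and 0 towards the bulge, while 25 of its sites were in the bulge list only and 3 in the hair germ list only, of which 11 and 2 were past the depth limit. Of all sites, 20% were in the bulge list only and 10.2% in the hair germ list only. Past the depth limit these shares were 5.59% and 4.61%.

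Over the 26 genes of the bulge stem cell list, 21 of 293 shared sites were at least 2-fold higher in the hair germ and 19 in the bulge, or 7.17% and 6.48%, against 5.91% and 5.0% of all shared sites. Of its 25 members with at least 3 shared sites, the median was past 0.5 towards the bulge in 5 (Cd34, Krt24, Ccn2, Prlr and Postn) and towards the hair germ in 1, Runx1. Among all 5167 genes with at least 3 shared sites, these shares were 6.66% towards the bulge and 7.78% towards the hair germ. Postn, the gene of the matrix protein periostin, had a median of -0.63, which was 0.14 in fold enrichment. The list's median log2 ratio was -0.10, and 0.02 in fold enrichment, where 7 sites were higher in the hair germ and 6 in the bulge. Here and for every list below, the shares over all shared sites include 4104 sites with no protein-coding gene within 100 kb. No list can hold such sites, of which 9.11% were at least 2-fold higher in the hair germ and 12.8% in the bulge.

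In the list of genes known from the hair germ and early activation, sites past 2-fold were mostly higher in the hair germ. The list shares Runx1 and Lgr5 with the bulge stem cell list, and Lef1, Lgr5 and Wnt7b with the WNT list. Counts of these lists are therefore not independent. Of the 155 shared sites of this list of 20 genes, 15 (9.68%) were higher in the hair germ and 2 (1.29%) in the bulge. Over all shared sites these shares were 5.91% and 5.0%. The list's median was 0.13. With centring by level the list's counts were 14 and 2, and in fold enrichment 2 and 0. Among its 16 members with at least 3 sites, Klf5, Lef1 and Runx1 were past 0.5 towards the hair germ and Pthlh, the gene of parathyroid hormone-like hormone, was past it towards the bulge, at -0.89 over 4 sites. Of all 5167 genes with at least 3 shared sites, 7.78% were past 0.5 towards the hair germ and 6.66% towards the bulge.

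Lef1 stood out by its sites of 1 list. It had 6 sites in the hair germ list only and 0 in the bulge list only, against 10.2% and 20% of all sites. Those 6 sites had 0.633 to 2.62 FPM, and 3 of them were past the depth limit. All 6 overlapped a basal TAC peak, as did 51.5% of all sites in the hair germ list only. Of its 5 shared sites 2 were past 2-fold, 84.3 kb outside the gene (chr3:131025492-131025982; 3.71 in the hair germ and 1.496 in the bulge) and 3.53 kb outside it (3.35 and 1.45). The start of Lef1 had 6.51 and 4.53. Its median of 0.53 was -0.06 in fold enrichment.

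Runx1, a transcription factor gene needed for timely stem cell activation, had 18 of 23 shared sites above 0, a median of 0.51, and 4 sites past 2-fold towards the hair germ. In fold enrichment its median was 0.02. A site 2.80 kb outside it (chr16:92597327-92598670) had 5.34 FPM in the hair germ and 1.91 in the bulge, 2.81-fold (1.88 to 4.22), while its strongest site, at a start, had 12.1 and 15.3. Klf5, a transcription factor of proliferating epithelia, had all 8 sites above 0 and a median of 0.75. Its farthest site (chr14:99411591-99412440, 98.2 kb away) had 4.89 and 1.45, 3.38-fold (2.17 to 5.32). A site across the edge of Klf5 (chr14:99298246-99299835) had 23.4 and 22.7. Lgr5, whose locus drives the GFP used in the sort of both populations, had 15 shared sites with a median of -0.21 and none past 2-fold in either direction.

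In the WNT pathway, sites past 2-fold were mostly higher in the hair germ. Of 320 shared sites near 46 genes, 28 (8.75%) were at least 2-fold higher in the hair germ, against 5.91% of all shared sites. In the bulge 6 (1.88%) were at least 2-fold higher, against 5.0%, although the list's median was 0.02. In fold enrichment the counts were 5 and 1, and with centring by level 23 and 9. Among all 5167 genes with at least 3 shared sites, 7.78% had a median past 0.5 towards the hair germ and 6.66% towards the bulge. Of 37 WNT members with at least 3 sites, 7 were past 0.5 towards the hair germ and 0 towards the bulge. Among ligands these were Wnt7a (0.85 over 3 sites), Wnt10b (0.67 over 3) and Wnt5a (0.63 over 3). In fold enrichment Wnt7a was at 0.03 and Wnt5a at 0.62. The start of Wnt7a (chr6:91409546-91411366) had 3.08 FPM in the hair germ and 1.12 in the bulge, 2.76-fold (1.61 to 4.75).

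Among receptors and receptor regulators, Lgr6, an R-spondin receptor, had a median of 0.62 over 9 sites, and Znrf3, a ubiquitin ligase that removes WNT receptors, 0.77 over 9 sites. In Znrf3 4 sites were past 2-fold, and 1 of them (chr11:5411284-5412854) had 5.79 in the hair germ and 1.58 in the bulge, 3.69-fold (2.43 to 5.66). Among nuclear factors were Lef1, above, and Tle1 (0.56 over 4), a co-repressor. In fold enrichment the medians of Lgr6 (-0.14), Znrf3 (-0.04) and Wnt10b (-0.04) fell on the other side of 0. Axin2, a common WNT target, had a median of 0.28 over 10 sites. The WNT inhibitors Sfrp1 (-0.25 over 12), Dkk3 (-0.13 over 8) and Wif1 (0.38 over 6) had medians on both sides of 0.

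BMP pathway genes split by member. Of 123 shared sites 10 (8.13%) were higher in the hair germ and 7 (5.69%) in the bulge. Over all shared sites these shares were 5.91% and 5.0%. In fold enrichment the list's counts were 1 and 2. Bmp7, a BMP ligand, had 14 of 15 sites above 0, a median of 0.74, and 5 sites past 2-fold. A group of its sites lay 50.1 to 78.1 kb outside the gene. The site at chr2:172811199-172811885 had 9.68 FPM in the hair germ and 1.45 in the bulge, 6.69-fold (4.53 to 10.1), and the site at chr2:172792559-172793123 had 4.43 and 0.665, 6.70-fold (3.75 to 12.6). A site across the edge of Bmp7 (chr2:172938776-172940811), which holds the annotated start of Gm40010, had 10.7 and 9.72, and in fold enrichment the gene's median was -0.01.

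Bmp6, a ligand linked to stem cell rest, had a median of -0.31 over 7 sites, with 2 past 2-fold towards the bulge. One of these (chr13:38317848-38318569) had 8.48 in the bulge against 3.89 in the hair germ, 2.17-fold (1.55 to 3.09). Among receptors, Bmpr1b leaned to the bulge, as above, and Bmpr2, the type II receptor, to the hair germ with a median of 0.55 over 5 sites, 2 of them past 2-fold. Nog, the secreted BMP inhibitor, had all 6 sites below 0 with a median of -0.65, or -0.02 in fold enrichment. Among the Id genes, common BMP targets, Id1 (0.01 over 4 sites) and Id3 (0.00 over 5) had no site past 2-fold, Id2 (-0.18 over 7) had 1 towards the hair germ and Id4 (-0.08 over 7) 1 towards the bulge.

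Over all shared sites 5.91% were at least 2-fold higher in the hair germ and 5.0% in the bulge. TGF-beta pathway genes had 12 sites of 130 (9.23%) higher in the hair germ and 2 (1.54%) in the bulge, and a median of 0.15. With centring by level these counts were 6 and 5, and in fold enrichment 3 and 0. Ltbp1, which stores latent TGF-beta in the matrix, had a median of 0.58 over 18 sites with 4 past 2-fold towards the hair germ, and Smad3, a signal transducer, 0.51 over 8 sites with 0 past it. The FGF and EGF receptor list, with Areg, had 19 of 150 sites (12.7%) higher in the hair germ and 5 (3.33%) in the bulge. In fold enrichment the list's counts were 1 and 2. Areg was the list's only member past 0.5 among 17 with at least 3 sites. Of all 5167 genes with at least 3 shared sites, 7.78% were past 0.5 towards the hair germ and 6.66% towards the bulge. In the hedgehog list 9 of 112 sites (8.04%) were higher in the hair germ and 3 (2.68%) in the bulge. In fold enrichment the list's counts were 3 and 0. Sufu, an inhibitor of GLI factors, had a median of 0.57 over 5 sites, and Hhip, which binds hedgehog ligands, -0.80 over 5. Fgf18, a ligand linked to telogen, had a median of -0.14 over 4 sites.

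Notch genes had 4 of 88 sites higher in the hair germ and 1 in the bulge. AP-1 and immediate early genes had 2 and 3 of 125. Both lists had fewer sites past 2-fold than the shares over all shared sites, 5.91% and 5.0%. In the AP-1 list Klf4 was the member past 0.5, at -0.52 over 9 sites (0.01 in fold enrichment). In the cell cycle list 3 of 100 sites were higher in the hair germ and 6 in the bulge. Of its 16 members with at least 3 sites, E2f3 (0.88 over 4 sites) and Mycn (0.53 over 7) were past 0.5 towards the hair germ. Of all 5167 genes with at least 3 shared sites, 7.78% were past 0.5 towards the hair germ and 6.66% towards the bulge. Widely expressed genes had 0 sites past 2-fold of 46, with a median of -0.01. Among keratin and junction genes Pkp2 (0.95) leaned to the hair germ and Krt6a (-0.63) to the bulge, and in fold enrichment Krt6a was at 0.02. Lamb3 (-0.79), a basement membrane laminin chain, was the member past 0.5 in its list of 19. Near Lor, a cornified envelope gene, 2 of 3 shared sites were past 2-fold towards the hair germ, and near Tgm5, a transglutaminase gene of the same layer, 1 of 3 towards the bulge; the median of Tgm5 was -0.98, and 0.03 in fold enrichment. Hair matrix regulators had 10 and 5 of 135, epidermal transcription factors 17 and 5 of 215, and integrin, laminin and hemidesmosome genes 6 and 8 of 152. Genes of the hair shaft and inner root sheath had 2 and 0 of 29, and sebaceous gland genes 2 and 1 of 28, among them Cidea, a lipid droplet gene, with a median of 0.69 over 4 sites.

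**Figure D4:**
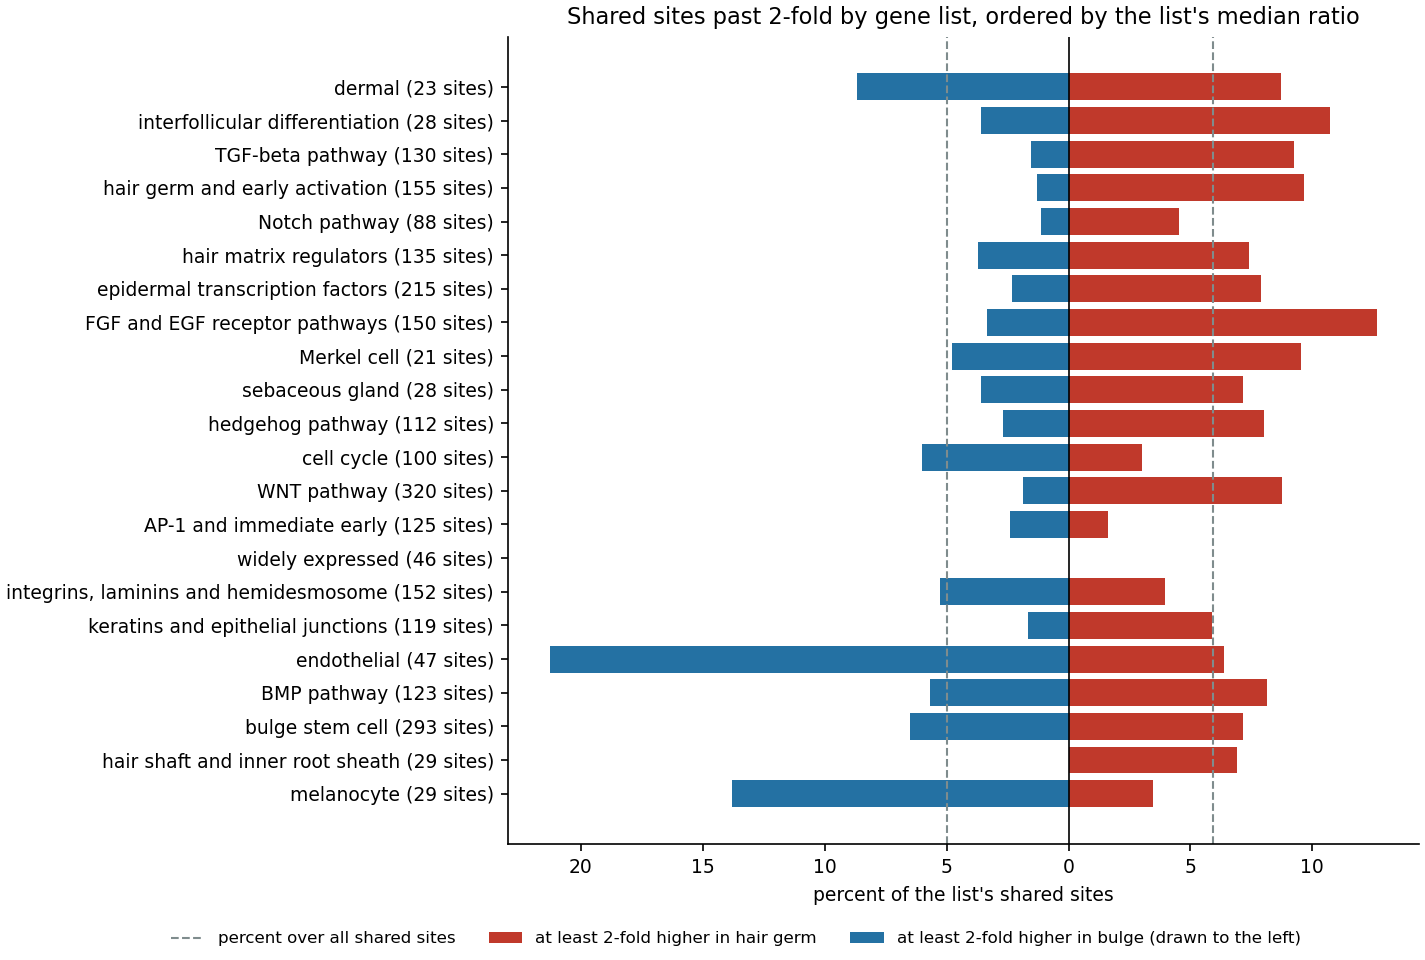
Percent of the shared sites near genes of each list that were at least 2-fold higher in the hair germ (right) or in the bulge (drawn to the left), for lists with at least 20 shared sites, ordered by the median ratio; dashed lines mark the shares over all shared sites, 5.91% and 5.0%. WNT, TGF-beta and early activation genes lie above the line on the right and below it on the left. So do FGF and EGF receptor, hedgehog, hair matrix, epidermal transcription factor, hair shaft and inner root sheath, interfollicular, sebaceous and Merkel cell genes. Endothelial and melanocyte genes reach farthest to the left. The dashed lines include the 4104 shared sites with no protein-coding gene within 100 kb, which no list can hold.

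Sites near markers of other skin cells were counted in the same way. For comparison, 5.0% of all shared sites were past 2-fold towards the bulge and 5.91% towards the hair germ. Of 47 shared sites near endothelial genes 10 (21.3%) were at least 2-fold higher in the bulge, against 3 in the hair germ. In fold enrichment these counts were 2 and 1, and among the 25 sites with a pileup of at least 20 in both lists 2 and 1. Emcn gave 3 of the 10, and the vascular receptor genes Kdr and Flt1 gave 2 each. Near Kdr these sites lay about 54.1 to 55.6 kb outside the gene, and the strongest (chr5:75876589-75877244) had 9.52 FPM in the bulge against 2.17 in the hair germ. At the start of Kdr the values were 0.914 and 0.633. The medians of the endothelial genes with at least 3 shared sites ran from -1.80 at Kdr and -1.04 at Emcn to 0.15 at Pecam1 and 0.36 at Cdh5. Of 29 sites near melanocyte genes 4 were higher in the bulge and 1 was higher in the hair germ, all 5 of them near Mitf, and Tyr, the gene of the key pigment enzyme, had no shared site. Slc45a2, a melanosome transporter gene, had a median of 0.73 over 3 sites, and Mitf -0.48 over 18. Immune genes had 7 shared sites in all, near Ptprc, Spi1 and Ikzf1, with 10 of the 13 placed genes at none. Dermal genes had 2 of 23 sites in each direction, with Col1a1, a fibrillar collagen gene, at a median of 0.68 over 3 sites, and Merkel cell genes 2 and 1 of 21. The part of other cells in the ratios was not tested.

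Sites in 1 list only were weak, and their number moved with the depth limit set. The bulge list alone held 13827 sites (20% of all) and the hair germ list alone 7048 (10.2%). Their median pileups were 24 and 12 fragments, and their median fold enrichments 4.59 and 4.599. A bulge site needed a pileup of 34.8 for the shallower hair germ library to reach the lower quartile of its own peaks at equal openness, and a hair germ site 12.4 for the bulge library. Above those limits lay 3865 bulge sites (28.0% of them) and 3185 hair germ sites (45.2%). With the limit at the other list's median pileup, 1003 and 632 were left. Start sites made up 1.97% and 1.76% of the sites above the limits.

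The strongest sites of 1 list often lay beside a peak of the other list. In the bulge list the highest was inside Chl1 (chr6:103649055-103649286), a spike of 232 bp with a pileup of 788 (32.7 FPM) and a fold enrichment of 34.6. It was also in the suprabasal TAC list, at 35.8 FPM, and not in the hair germ or basal TAC lists. The next were near Gtf3c6, Spink2, Sdc4, Pkd1l1 and Prrg4, with 8.14 to 10.5 FPM, fold enrichments of 2.70 to 6.92, and a hair germ peak 784 to 2806 bp away. In the hair germ list they were near Sp4, Adh6a, Ets2, Rarb, Sh3pxd2b and Klf2, with 6.42 to 7.51 FPM, fold enrichments of 2.53 to 7.36, and a bulge peak 259 to 3025 bp away. Rarb, a retinoic acid receptor gene, held its site (chr14:16510469-16511054) inside the gene at 6.88 FPM, and Sh3pxd2b had a site (chr11:32338804-32339549) with 6.79, also present in the basal TAC list at 5.19.

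The shared sites whose counting intervals lay farthest from the median were all away from gene starts. Of the 8 towards the hair germ, 5 had no protein-coding gene within 100 kb. They had 5.07 to 9.05 FPM in the hair germ and 0.54 to 1.25 in the bulge, 7.30 to 9.43-fold, and fold enrichments of 6.81 to 14.8 in the hair germ and 3.38 to 7.48 in the bulge. The first (chr4:73044260-73045759) had 5.07 and 0.54, 9.43-fold (5.09 to 18.8). One was inside Pxdn (chr12:29945016-29945884), a peroxidasin gene, with 8.05 and 1.04, 7.79-fold (4.95 to 12.7). The others near genes were inside Kctd16 (5.43 and 0.623) and 56.0 kb from Yipf5 (9.05 and 1.25).

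Of the 8 towards the bulge, 2 had no gene within 100 kb. Those described here had 4.90 to 10.1 FPM in the bulge against 0.814 to 2.17 in the hair germ, 4.65 to 5.99-fold, and fold enrichments of 5.20 to 19.8 in the bulge against 4.18 to 9.79 in the hair germ. A site with no gene within 100 kb (chr17:75995938-75996764) had 4.90 and 0.814, 5.99-fold (3.05 to 13.4). A site 7.78 kb from Sprr2b, a gene of the cornified envelope, had 10.1 and 2.17, 4.65-fold (3.05 to 7.39). Sites inside Dhrs2 (6.98 and 1.36) and Efcab6 (5.32 and 0.995) and near Smim23 (6.73 and 1.36) and Galnt15 (5.98 and 1.18) followed. A basal TAC peak lay at 2 of these 8 sites and at 5 of the 8 towards the hair germ.

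The anagen lists separated both directions over all sites past 2-fold too. A basal TAC peak lay at 76.7% of the sites higher in the hair germ (75.1 to 78.2%) and at 44.0% of those higher in the bulge (42.0 to 46.0%), against 81.1% of the sites within 2-fold. A suprabasal TAC peak lay at 64.4% (62.7 to 66.2%), 24.8% (23.1 to 26.6%) and 73.1%. Neither list had a peak at 17.3% of the sites higher in the hair germ and 51.4% of those higher in the bulge. Sites higher in the bulge were the stronger in telogen, at 4.20 against 2.62 FPM in the population where each was higher.

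The share was lowest where the bulge signal exceeded the hair germ signal most. Among the 561 sites with a log2 ratio below -1.5, 31.7% had a basal TAC peak and 13.4% a suprabasal one. Between -1.5 and -1 the shares were 47.7% and 28.3%, between -0.5 and 0.5 they were 84.3% and 77.9%, and above 1.5 they were 73.3% and 61.4%. Sites in 1 telogen list showed the same order: above the depth limits, 54.3% of the hair germ sites (52.6 to 56.1%) and 33.2% of the bulge sites (31.8 to 34.7%) had a basal TAC peak. The anagen samples differed in age, sort and, for the suprabasal cells, strain, and which of these goes with the difference cannot be told apart. Sites are not independent samples, so these intervals describe the lists.

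**Figure D5:**
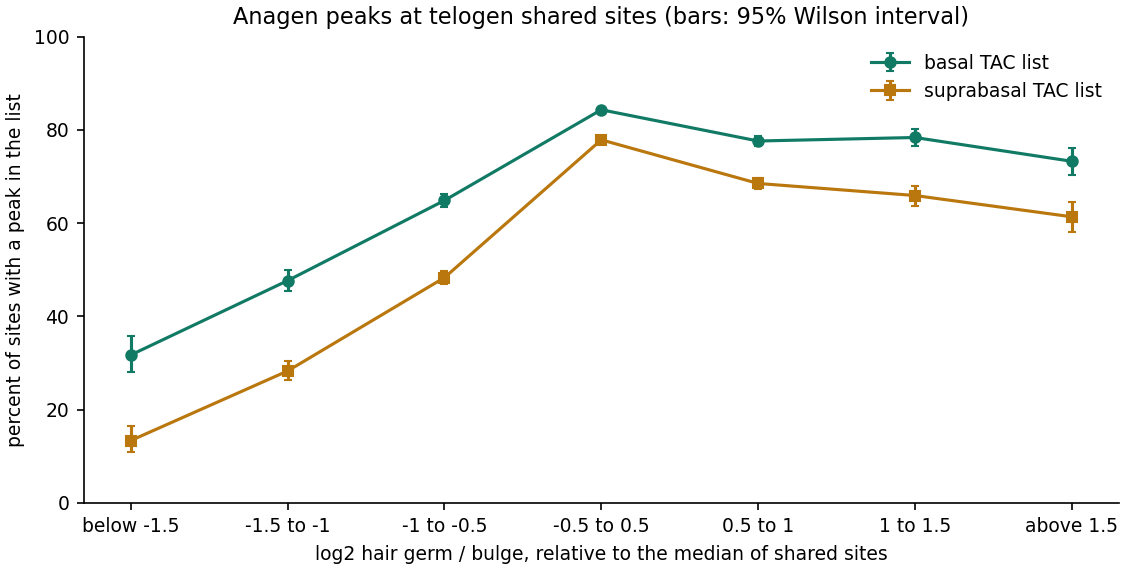
Percent of shared sites with a peak in the basal TAC list (circles) or the suprabasal TAC list (squares), by the log2 ratio of hair germ to bulge signal, with 95% Wilson intervals. Basal TAC peaks are at 31.7% of sites below -1.5 and at 73.3% of sites above 1.5.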

How the data were processed

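The members, gene lists and thresholds were chosen with earlier results of these data known. Per the labels, 8 samples in 4 populations were sequenced, and the authors deposited 1 peak list per population, called on pooled samples. Per the file headers, MACS 2.1.1.20160309 called peaks from paired-end fragments with all duplicates in that alignment kept, no control library, a q-value cutoff of 0.05 and a 10 kb background window. Bowtie2 2.2.9, Picard and the mm10 build are named per the submitters' processing notes; whether read ends were shifted for Tn5 is not stated there. The deposited files give each peak's length, its pileup (a fragment coverage signal, not scaled for depth), its fold enrichment (a ratio to local background), and −log10 columns for the p-value and for the q-value, all from the authors' caller. The header names of both −log10 columns were damaged, and they were told apart by place.

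Peaks overlapping by at least 1 bp were merged, and pileups were divided by total fragments and multiplied by 1000000 (FPM). Depth was 11053351 hair germ and 24065469 bulge fragments. Ratio intervals are exact 95% conditional binomial (Clopper-Pearson) and share intervals Wilson; overlapping fragments are not independent molecules, so they cover counting error only. Sites past 2-fold lie at least that far from the median of shared sites. RefSeq genes of GRCm38.p6 were used: each site took the protein-coding gene whose span was closest, up to 100 kb away, and start sites from the RefSeq start windows. Of 453 entries in 23 gene lists 452 were placed. No spread between samples can be computed, so no test was run; the scripts were tested on simulated data. Python 3.11.15 with numpy 2.4.6, pandas 2.3.3, scipy 1.17.1 and matplotlib 3.10.9 was used.

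Genes and sites were named by rule: the 12 highest and 12 lowest gene medians among genes with at least 5 shared sites, the 8 genes with the largest difference in sites past 2-fold in each direction (ties at the last place taken by alphabet, and Rbfox1, which tied, added), the 8 shared sites in each direction with intervals farthest from the median, the 6 strongest sites of each list only, list members with at least 3 shared sites and a median past 0.5, and 43 preset genes. One site that the rule selects is not reported here. The other markers of skin cells and the printed windows were named after their values were seen. Alternatives changed the signal, the centring, the fold, the depth limit and the filters. The counts of sites past 2-fold near each list under other scalings were added after seeing the data.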

Additional observations from a re-analysis of the deposited data

Results flagged for a closer look

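The bulge list held 9 peaks on the Y chromosome and the hair germ list 7, in chromosomes left out of all comparisons, with highest pileups of 128 and 45 fragments (5.32 and 4.07 FPM). The mice were of mixed sex. On the mitochondrial chromosome the bulge list held 4 peaks and the hair germ list 5, with highest pileups of 29984 and 15548 fragments (1246 and 1407 FPM). Both were noted because they are signal outside the comparison, above the level that a count of 0 allows.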

How the results depend on the processing

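No paired analysis was possible because each list pools both samples of a population; leaving out a sample was not possible for the same reason. The median log2 ratio of -0.01 was -0.092 in fold enrichment, -0.0013 for pileup minus background, -0.015 with a pileup of at least 20 in both lists and -0.020 with a −log10 q of at least 10. Of the counts of 2852 sites higher in the hair germ and 2413 in the bulge, those that moved by more than 1.5 times became 7104 and 6290 at 1.5-fold, 767 and 435 at 3-fold, 484 and 264 with the interval wholly past 2-fold, 698 and 753 in fold enrichment, 1809 and 1073 with a pileup of at least 20, and 1411 and 1143 with a −log10 q of at least 10. The hair germ share of sites past 2-fold was 54.2%, 43.6% with centring by level, 48.1% in fold enrichment, 63.8% at 3-fold, 64.7% by interval and 62.8% with a pileup of at least 20. Sites of the hair germ list only above the depth limit numbered 3185, 632 with the limit at the median, 7048 with none and 1207 with a −log10 q of at least 10; those of the bulge list only were 3865, 1003 with the limit at the median and 13827 with none. The share of sites higher in the hair germ with a basal TAC peak was 79.6% with a pileup of at least 20 and 68.7% with stricter TAC peaks, and that of sites higher in the bulge 50.0% and 36.8%. Of 63 gene medians past 0.5, all 63 kept their direction with centring by level and 52 in fold enrichment, where 8 stayed past 0.5. Those that changed side in fold enrichment were Bmp7 (-0.015), Gfra1 (0.0054), Klf4 (0.011), Krt24 (0.019), Krt6a (0.023), Lef1 (-0.064), Lgr6 (-0.14), Postn (0.14), Tgm5 (0.026), Wnt10b (-0.043) and Znrf3 (-0.039), and with a pileup of at least 20 Slc1a2 (-0.38). Of 23 list medians, 19 kept their direction with centring by level and 14 in fold enrichment. The cause of these shifts was not tested, other than that stricter folds and filters keep fewer sites. The hair germ depth limits what can be read from weak sites and sites of the bulge list only.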
